A study of Sus scrofa with 75 samples.

Results

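The miR-30 family is a group of microRNAs (miRNA) that share the start of their sequence, and it was followed here in peripheral blood mononuclear cells (PBMC) of pigs. Members were all entries of the miRNA count table with a mature name of miR-30a, miR-30b, miR-30c, miR-30d or miR-30e, with either arm of the hairpin. The table held 11 such entries among 479, and they gave 10 mature names among 457, since miR-30c-5p was listed under 2 precursors and the entry with the larger total was kept. All 10 members passed the filter on low counts, as did 209 of the 457 mature names. Small RNA libraries were made from 13 pigs, each sampled at d 11, d 20 and d 56 of age, which gave 39 libraries. Control pigs (n = 8) were reared without soil in farrowing crates. Topsoil pigs (n = 5) had fresh topsoil every day from d 4 to d 20, so that d 11 and d 20 fell within the exposure and d 56 came after it. All pigs were synthetic large white pigs, and all were weaned at d 20 and moved to a nursery without soil. In changes up to d 56, age, weaning and the move therefore cannot be told apart. Treatment and age were taken from the column names of the table. The separate sample characteristics gave the same treatment and age in 6 of the 39 libraries.

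A miRNA guides the RNA-induced silencing complex to messenger RNAs that pair with its seed, the bases near its 5′ end, and lowers their translation and stability. Members of a family with the same seed can bind the same sites, so their summed amount matters as well as the amount of each. miR-30 miRNAs are expressed in many tissues and are known for roles in cell differentiation, autophagy and the maturation of epithelial, muscle and blood cells.

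The sequences of the members with the largest counts are shown because they tell which members share a seed and how little separates them. They are from the RefSeq genome Sscrofa11.1, the build used by the authors, and all 10 members had a position there. They are written 5′ to 3′ with the seed (bases 2 to 8) in capitals. The 5 members of the 5p arm had the seed GUAAACA.
miR-30a-5p: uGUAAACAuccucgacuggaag
miR-30d: uGUAAACAuccccgacuggaagcu
miR-30e-5p: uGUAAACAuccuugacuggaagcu
miR-30c-5p: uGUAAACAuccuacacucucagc
miR-30b-5p: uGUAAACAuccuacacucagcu
The 3p arms of miR-30a and miR-30e had the seed UUUCAGU.
miR-30a-3p: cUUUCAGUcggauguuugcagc
miR-30e-3p: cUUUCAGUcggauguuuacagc
Of the other 3p arms, miR-30c-3p and miR-30c-1-3p shared the seed UGGGAGA, and miR-30b-3p had the seed UGGGAGG.

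Counted from 1 at the 5′ end, miR-30a-5p and miR-30d differed over their 22 shared bases only by U12C, and miR-30a-5p and miR-30e-5p only by C13U. miR-30d and miR-30e-5p differed by C12U and C13U, and miR-30a-3p and miR-30e-3p by G18A. How reads that fit several of these miRNAs were counted is not given in the sources used here, so counts of members that differ by 1 base are uncertain to the extent that they share reads. In contrast, miR-30b-5p differed from miR-30a-5p at 7 of 22 positions and miR-30c-5p at 5 of 22.

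The 6 hairpin genes lay in pairs on 3 chromosomes. On chromosome 1, MIR30C-2 (51383782 to 51383861) and MIR30A (51412827 to 51412933) were on the minus strand, 28965 bases apart, in introns of the protein-coding gene LOC102157778. On chromosome 4, MIR30D (6948669 to 6948747) and MIR30B (6952794 to 6952869) were on the plus strand, 4046 bases apart, and overlapped no other annotated gene. On chromosome 6, MIR30C-1 (170426781 to 170426860) and MIR30E (170429841 to 170429920) were on the minus strand, 2980 bases apart, in introns of NFYC, which encodes a subunit of the transcription factor NF-Y. miR-30a and miR-30d therefore came from different chromosomes, and miR-30c-5p could come from chromosome 1 or chromosome 6.

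The total count per library, with 1 entry per mature name, was between 1634831 (control pig 7 at d 56) and 13494765, with a median of 10407253. miR-486, a miRNA of red blood cells and their precursors, took 11.8% to 95.5% of a library, and its share was lower at d 56 than at d 11 in 13 of 13 pigs. Apart from miR-486, a library held between 389906 and 6343113 counts. The family had between 7115 and 93459 reads in a library. PCR reads without molecular identifiers are not independent molecules, so counting alone understates the error of low counts. Because miR-486 moved so far with age, abundances are given as upper-quartile-scaled CPM (UQ CPM), in which the 75% quantile of the tested miRNAs sets the scale, and also without miR-486 where stated.

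The family total was summed over all 10 members and so over different seeds, and no total of the members of 1 seed is given. The family made up 1.09% to 2.91% of all counts other than miR-486. In control pigs this share had a median of 1.80% at d 11, 2.14% at d 20 and 1.60% at d 56. In topsoil pigs the medians were 1.92%, 1.77% and 1.68%. The groups overlapped at every age, and within pigs the share was lower at d 56 than at d 11 in 12 of 13, with a mean change of -0.411 ± 0.520 percentage points (SD, n = 13 pigs). As a percentage of all counts including miR-486, the direction was the opposite, with a higher share at d 56 in 13 of 13 pigs. On the UQ CPM scale the summed family was between 2247 and 5240.2, and it was higher at d 56 than at d 11 in 7 pigs and lower in 6. The direction of the family total with age thus depended on the scale.

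The members differed widely in abundance. A read covers a whole mature miRNA of 20 to 24 bases, so levels are given per read and not per length of transcript. Whether members of different sequence were captured equally was not tested, so the order below is one of reads. miR-30d held 45.8% of the reads of the family over the 39 libraries, miR-30a-5p 20.2%, miR-30e-3p 16.9% and miR-30e-5p 12.3%. miR-30c-5p (2.28%), miR-30b-5p (1.30%) and miR-30a-3p (0.928%) followed. The 3 rarest members were miR-30c-1-3p (0.219%), miR-30c-3p (0.0980%) and miR-30b-3p (0.0197%), with a read in 36, 35 and 22 libraries. By median UQ CPM the order was miR-30d, miR-30a-5p, miR-30e-3p, miR-30e-5p, miR-30c-5p, miR-30b-5p, miR-30a-3p and then these 3. The ranges of neighbours in that order overlapped, except for miR-30a-3p, whose lowest value (12.93) lay just above the highest value of miR-30c-1-3p (12.90). Within libraries, miR-30d was above miR-30a-5p in 36 of 39 and miR-30a-5p above miR-30e-3p in 22 of 39. For miR-30e the 3p arm was above the 5p arm in 28 of 39 libraries, and for miR-30a the 5p arm exceeded the 3p arm in every library, by a log2 ratio of 2.80 to 5.84.

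The members were first compared between ages. From d 11 to d 56, both arms of miR-30a fell and miR-30d rose at a false discovery rate (FDR) of 0.10. The test was edgeR's quasi-likelihood test on the mean change over the 13 pigs together, and 3 of 10 members changed. Of all 209 tested miRNAs, 53 changed (25.4%), of which 36 were higher (17.2%; 1 of 10 members) and 17 lower (8.13%; 2 of 10 members). From d 20 to d 56, 2 of 10 members changed, the 2 arms of miR-30a, both lower. The background there was 34 of 209 miRNAs (16.3%), 21 higher (10%; 0 of 10 members) and 13 lower (6.22%). From d 11 to d 20, edgeR called 0 of 10 members and 0 of 209 miRNAs (0%), and at an unadjusted p below 0.05 there were 0 members and 12 miRNAs. DESeq2 called 4 of the 209 there and limma voom 2, none of them miR-30. The shares of members that changed were near those of all miRNAs. With treatment and age taken from the sample characteristics in place of the column names, 0 of 10 members and 0 of 209 miRNAs passed the FDR for d 56 against d 11 or d 20, and the log2 change of miR-30a-5p from d 11 was 0.0388.

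Scaling moved all miRNAs together, which bears on these directions. From d 11 to d 56, the median log2 change of the 209 miRNAs was 0.46 with upper quartile scaling, 0.29 with TMM, 0.21 with DESeq2, 0.14 with total counts without miR-486 and 2.38 with total counts including miR-486. The median over the 10 members with upper quartile scaling was 0.13, with 5 members above 0 and 5 below, against 68.9% of all miRNAs above 0. Relative to the median of all miRNAs, miR-30a-5p was between -1.32 and -1.23 and miR-30a-3p between -1.65 and -1.47 under these 5 scalings, on a log2 scale. miR-30d was between 0.02 and 0.10, so its rise was close to the shift of the median miRNA. Before this centring, the direction of miR-30a-5p and miR-30a-3p flipped to higher with total counts including miR-486 (log2 changes of 1.15 and 0.91). From d 20 to d 56 the median of all miRNAs was 0.26 with upper quartile scaling, and relative to it miR-30a-5p was between -1.34 and -1.19 and miR-30a-3p between -1.23 and -0.98 under the 5 scalings. Uncentred, these directions too were higher with total counts including miR-486 (0.60 and 0.81).

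**Figure D1:**
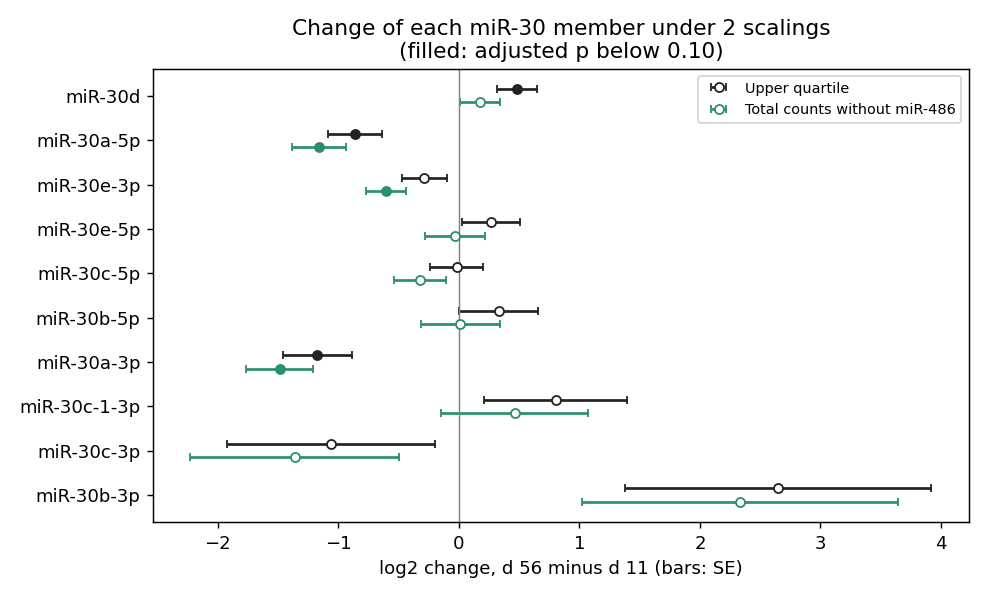
Log2 change of each miR-30 member from d 11 to d 56 over 13 pigs (edgeR, bars are SE), ordered from the most abundant at the top, with upper quartile scaling (black) and total counts without miR-486 (green); filled points passed an FDR of 0.10. Both arms of miR-30a lie below 0 under both scalings (miR-30a-5p -0.86 with upper quartile scaling), miR-30d passes only with upper quartile scaling, miR-30e-3p only without miR-486, and miR-30e-5p changes sign between them; with total counts including miR-486, not drawn, both arms of miR-30a lie above 0.

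miR-30a-5p is the more abundant strand of the MIR30A hairpin. In control pigs its lowest, median and highest abundance was 456, 821 and 1334.5 UQ CPM at d 11. The same values were 642, 887 and 1716 UQ CPM at d 20 and 252, 545 and 1114 UQ CPM at d 56. Control groups of different ages overlapped, with pig 1 alone near the upper end at d 56. In topsoil pigs 1 to 5, miR-30a-5p was at 869.8, 1229, 1105, 1366 and 771 UQ CPM at d 11. At d 20 the values of these pigs were 858, 1436, 1094, 792 and 1066 UQ CPM. At d 56 they were 441, 525, 378, 366 and 478 UQ CPM. All 5 topsoil values at d 56 lay below every topsoil value at d 11 and d 20. How many of all 209 tested miRNAs were separated likewise was not counted, here or for miR-30a-3p below. Over all pigs, miR-30a-5p fell from d 11 to d 56 by a log2 change of -0.86 ± 0.23 (SE; edgeR adjusted p = 0.00543), and it was lower in 11 of 13 pigs. The change between d 20 and d 56 was -1.06 ± 0.24 (edgeR adjusted p = 0.00174), lower in 12 of 13 pigs.

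miR-30a-3p, the less abundant strand of the same hairpin, carries a different seed. Its lowest, median and highest abundance in control pigs was 23.2, 48.2 and 84.2 UQ CPM at d 11. At d 20 the values were 20.7, 38.8 and 88.4 UQ CPM, and at d 56 they were 14.9, 26.4 and 72.2 UQ CPM. The highest control value at d 56 was again that of pig 1, and the other 7 were at or below 37.1 UQ CPM. In topsoil pigs 1 to 5, miR-30a-3p was at 93.0, 86.4, 61.7, 41.8 and 33.95 UQ CPM at d 11. At d 20 it was at 53.8, 26.3, 75.1, 25.6 and 93.0 UQ CPM, and at d 56 at 12.9, 27.8, 15.4, 13.0 and 19.8 UQ CPM. Topsoil pigs at d 56 lay below all topsoil pigs at d 11 and overlapped those at d 20 through pig 2. The log2 change over all pigs from d 11 to d 56 was -1.17 ± 0.29 (SE; edgeR adjusted p = 0.00285), lower in 12 of 13 pigs. Between d 20 and d 56 it was -0.95 ± 0.31 (edgeR adjusted p = 0.0389), lower in 10 of 13 pigs, and without topsoil pig 5 this call was lost (-0.75, adjusted p = 0.195). Thus both strands of the hairpin were lower at d 56 over all pigs, and their log2 ratio showed no common direction, being higher at d 56 than at d 11 in 9 pigs and lower in 4.

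miR-30d, which lies on chromosome 4 and differs from miR-30a-5p by U12C, was the most abundant member. In control pigs its lowest, median and highest abundance was 973, 1202 and 1718 UQ CPM at d 11. The same values were 1137, 1465 and 2119.8 UQ CPM at d 20 and 1037, 1774 and 2112 UQ CPM at d 56. These groups overlapped widely, and the lowest value at d 56 was that of pig 7, the library with the fewest reads. In topsoil pigs 1 to 5, miR-30d was at 701, 1369, 1407, 2019 and 1260.1 UQ CPM at d 11. At d 20 it was at 999.6, 1203, 1471, 1037 and 1428 UQ CPM, and at d 56 at 2098, 1904, 1308.5, 2016 and 2783 UQ CPM. Pigs 1, 2, 4 and 5 were higher at d 56 than at d 20, and pig 3 was lower. The log2 change from d 11 to d 56 was 0.48 ± 0.17 (SE; edgeR adjusted p = 0.0308), and 8 of 13 pigs were higher. Between d 20 and d 56 it was 0.41 ± 0.18 (edgeR adjusted p = 0.138), higher in 8 of 13 pigs, and it passed the FDR under some other settings. The call at d 56 against d 11 was lost with TMM (0.34, adjusted p = 0.147), DESeq2 (0.28, adjusted p = 0.134) and total counts without miR-486 (0.18, adjusted p = 0.554), with every miRNA tested (0.39), and also without topsoil pig 1 (0.38) or topsoil pig 5 (0.41). Its adjusted p was between 0.0000302 and 0.989 over all alternatives.

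**Figure D2:**
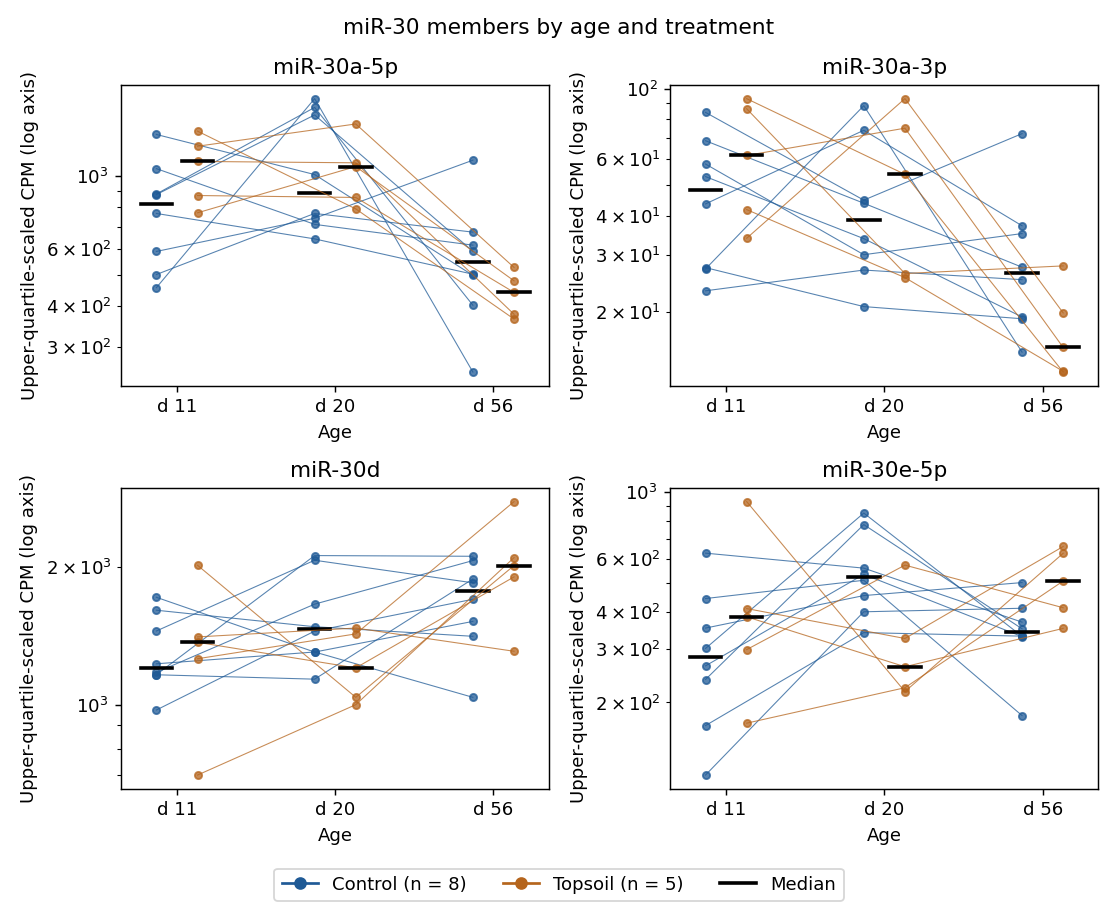
Abundance of miR-30a-5p, miR-30a-3p, miR-30d and miR-30e-5p in UQ CPM (log axis) by age, with each pig as a point, its ages joined by a line, and black bars at the group medians (8 control and 5 topsoil pigs). For both arms of miR-30a, the 5 topsoil pigs at d 56 lie below all topsoil pigs at d 11. For miR-30a-5p they are at most 525 against at least 771. This direction flips with total counts including miR-486, and how many of all 209 miRNAs were separated likewise was not counted. Groups overlap for miR-30d and miR-30e-5p.

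The ratio of 2 members within a library does not depend on scaling. The log2 ratio of miR-30a-5p to miR-30d had a lowest, median and highest value of -1.82, -0.51 and -0.23 in control pigs at d 11. It was -1.48, -0.65 and 0.21 at d 20 and -2.48, -1.73 and -0.73 at d 56. Control pigs overlapped between ages, with pigs 1 and 7 highest at d 56. In topsoil pigs 1 to 5 the log2 ratio was 0.31, -0.16, -0.35, -0.56 and -0.71 at d 11. At d 20 it was -0.22, 0.26, -0.43, -0.39 and -0.42, and at d 56 it was -2.25, -1.86, -1.79, -2.46 and -2.54. Topsoil pigs at d 56 were apart from the same pigs at both earlier ages. How often other pairs of miRNAs were apart in this way was not counted. Within pigs, the log2 ratio was lower at d 56 than at d 11 in 12 of 13, with a mean change of -1.26 ± 0.83 (SD, n = 13). The mean change was -0.87 ± 0.78 (SD) in the 8 control pigs, of which 7 were lower, and -1.89 ± 0.42 (SD) in the 5 topsoil pigs, all lower. From d 11 to d 20 it had no common direction, with 7 of 13 pigs lower and a mean change of 0.12 ± 0.66 (SD). Expressed as a share of the family, miR-30a-5p was lower at d 56 than at d 11 in 11 of 13 pigs and miR-30d was higher in 11 of 13. In topsoil pigs the mean share of miR-30a-5p was 28.0% ± 3.61 at d 11 and 12.3% ± 2.23 at d 56 (SD, n = 5), and that of miR-30d was 34.6% ± 5.69 and 55.1% ± 4.12. In control pigs the mean share of miR-30a-5p was 23.8% ± 5.84 and 16.7% ± 6.02 (SD, n = 8), and that of miR-30d was 39.7% ± 7.50 and 49.1% ± 5.94. Whether the ratio differed in its change between treatments was not tested.

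**Figure D3:**
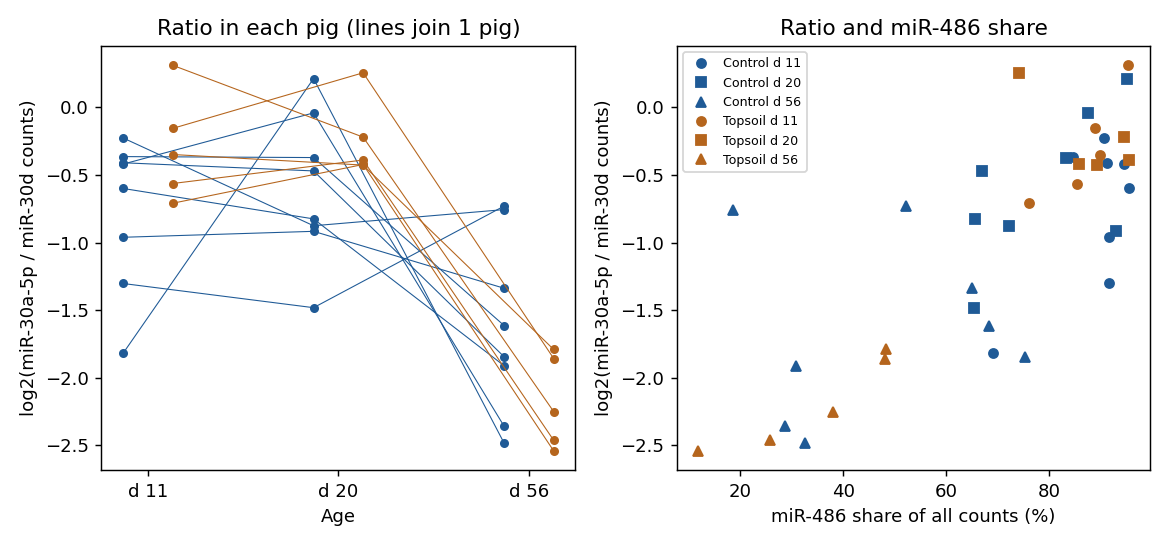
Log2 ratio of miR-30a-5p to miR-30d counts in each of 39 libraries, by age with a line for each pig (left) and against the miR-486 share of all counts in percent (right), in 8 control (blue) and 5 topsoil pigs (brown). The topsoil pigs lie between -2.54 and -1.79 at d 56 and between -0.71 and 0.31 at d 11, and libraries with less miR-486 tend to have a lower ratio.

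miR-30e lies in an intron of NFYC, and neither of its arms passed the test at any pair of ages with edgeR and upper quartile scaling. Its arm miR-30e-5p had a lowest, median and highest abundance of 115, 283 and 626 UQ CPM in control pigs at d 11. The values were 341, 521 and 851 UQ CPM at d 20 and 181, 342 and 500.0 UQ CPM at d 56. Control pigs were higher at d 20 than at d 11 in 7 of 8, with overlapping groups. In topsoil pigs 1 to 5, miR-30e-5p was at 171, 299.65, 385, 928 and 409.98 UQ CPM at d 11. At d 20 it was at 224, 571, 263, 217 and 326 UQ CPM, and at d 56 at 506, 413, 352, 626 and 659 UQ CPM. Topsoil pigs 3, 4 and 5 were lower at d 20 than at d 11, and pigs 1 and 2 were higher. The share of the family held by miR-30e-5p was higher at d 20 than at d 11 in 8 of 8 control pigs (mean change 4.47 ± 2.65 percentage points, SD) and in 2 of 5 topsoil pigs (-1.98 ± 6.30). The log2 change of miR-30e-5p from d 11 to d 56 was 0.27 ± 0.24 (SE; edgeR adjusted p = 0.491), and without miR-486 in the scaling its sign flipped (-0.03).

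miR-30e-3p differs from miR-30a-3p by G18A. In control pigs its lowest, median and highest abundance was 357, 744 and 1081 UQ CPM at d 11, and 306, 522 and 1449 UQ CPM at d 56, again with pig 1 highest. Topsoil pigs were between 546 and 1106 UQ CPM at d 11, between 524 and 1184.5 at d 20 and between 394 and 557 at d 56. These ranges overlapped at every pair of ages. The log2 change from d 11 to d 56 was -0.29 ± 0.19 (SE; edgeR adjusted p = 0.313), and 9 of 13 pigs were lower. It passed the FDR as lower with TMM (-0.46, adjusted p = 0.0413), DESeq2 (-0.50, adjusted p = 0.0139) and total counts without miR-486 (-0.60, adjusted p = 0.00804), and with total counts including miR-486 it was higher (1.71). The log2 ratio of miR-30e-5p to miR-30e-3p ranged from -3.23 to 0.76 over the libraries. The arm with the higher count therefore changed between libraries for miR-30e, which was not so for miR-30a.

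The miR-30b and miR-30c arms had fewer reads. miR-30c-5p had between 177 and 2260 reads and miR-30b-5p between 2 and 1600. miR-30c-5p had a log2 change of -0.02 ± 0.22 from d 11 to d 56 (SE; edgeR adjusted p = 0.948), and miR-30b-5p one of 0.33 ± 0.33 (adjusted p = 0.512). Control pig 4 at d 20 stood apart for miR-30b-5p, with 2 reads or 0.591 UQ CPM against a group median of 41.5. miR-30c-1-3p had at most 290 reads and miR-30c-3p at most 185, and neither passed the FDR with edgeR and upper quartile scaling (log2 changes of 0.80 and -1.06, adjusted p = 0.379 and 0.431). miR-30c-1-3p passed as higher with limma voom (1.20, adjusted p = 0.0966) and with total counts including miR-486 (2.80, adjusted p = 0.003). With a floor of 3 counts, the libraries with 0 reads allow up to 0.967 UQ CPM of miR-30c-1-3p (3 libraries) and 1.11 UQ CPM of miR-30c-3p (4 libraries). miR-30b-3p had at most 45 reads and was at 0 in 17 libraries, which allows up to 1.36 UQ CPM in control pig 8 at d 11 and less in the others. In topsoil pigs it was at 0 in 4 of 5 libraries at d 11 and again at d 20. At d 56 it was at 1.06, 2.48, 2.45, 0.885 and 0.996 UQ CPM in pigs 1 to 5. The highest earlier topsoil value, 0.371 UQ CPM in pig 1 at d 20, was a single read, and 3 reads in that library would be 1.11 UQ CPM, which is above 3 of the 5 values at d 56. In the 8 topsoil libraries with 0 reads, 3 reads would be 0.178 to 0.828 UQ CPM, below the lowest value at d 56 (0.885). The log2 change of miR-30b-3p over all pigs was 2.65 ± 1.27 (SE; edgeR adjusted p = 0.156), higher in 9 of 13 pigs, lower in 2 and at 0 reads at both ages in 2. It passed the FDR with DESeq2 (3.11, adjusted p = 0.057), limma voom (1.81, adjusted p = 0.0634), total counts including miR-486 (4.35, adjusted p = 0.0193), without RQI (2.81, adjusted p = 0.0722), without the pig block (2.28, adjusted p = 0.0968) and without topsoil pig 5 (3.91, adjusted p = 0.0702), and it was 1.92 without topsoil pig 2. Its adjusted p was between 0.0193 and 0.974 over all alternatives. The topsoil values at d 56 rest on 16 to 34 reads against 0 to 4 at the earlier ages.

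Whether topsoil altered the course of a member with age was tested by the treatment by age interaction. edgeR called 0 of 10 members and 0 of 209 miRNAs (0%). At an unadjusted p below 0.05 there were 1 member and 22 miRNAs, DESeq2 called 0 and limma voom 2, neither of them miR-30. The member was miR-30e-5p (edgeR adjusted p = 0.462), in which the topsoil change from d 11 to d 20 minus the control change was -1.07 ± 0.51 (SE, log2). For miR-30a-5p, the log2 change from d 11 to d 56 was estimated at -0.44 ± 0.29 in control and -1.28 ± 0.34 in topsoil pigs, a difference of -0.84 ± 0.44 (SE; adjusted p of the interaction 0.618, edgeR). For miR-30a-3p the same estimates were -0.51 ± 0.37 and -1.83 ± 0.44, a difference of -1.32 ± 0.57 (adjusted p of the interaction 0.546, edgeR). Tested alone, the difference of miR-30a-3p had an unadjusted edgeR p of 0.0265 (adjusted p = 0.994). That of miR-30a-5p had an unadjusted edgeR p of 0.0678 (adjusted p = 0.994). Within groups, the edgeR adjusted p from d 11 to d 56 was 0.395 in control and 0.0169 in topsoil pigs for miR-30a-5p. For miR-30a-3p it was 0.446 and 0.00695. From d 20 to d 56 it was 0.0448 and 0.0523 for miR-30a-5p, and 0.565 and 0.0643 for miR-30a-3p. Since the interaction did not pass, the larger falls in topsoil pigs were not shown to differ from those in control pigs.

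Topsoil and control pigs were also compared at each age. With edgeR, 0 of 10 members differed at d 11, where 0 of 209 miRNAs did (0%), and at an unadjusted p below 0.05 there were 0 members and 7 miRNAs. DESeq2 called 1 miRNA at d 11, not a miR-30 member. At d 20, 0 of 10 members and 2 of 209 miRNAs (0.957%) differed, with 1 member and 28 miRNAs at an unadjusted p below 0.05, and 9 miRNAs but 0 members with DESeq2. At d 56, 0 of 10 members and 0 of 209 miRNAs (0%) differed, with 1 member and 5 miRNAs at an unadjusted p below 0.05 and 0 with DESeq2. The member was miR-30e-5p at both ages. It was lower in topsoil pigs at d 20 by a log2 difference of -0.82 ± 0.33 (SE; edgeR adjusted p = 0.296) and higher at d 56 by 0.57 ± 0.24 (edgeR adjusted p = 0.924). The topsoil and control values of miR-30e-5p overlapped at both ages, and the median difference of all 209 miRNAs was -0.29 at d 20 and 0.07 at d 56. Without topsoil pig 2, whose value at d 20 was the highest of its group, the difference at d 20 passed the FDR (-1.08, adjusted p = 0.0933). With that pig left out, 6 of all 209 miRNAs (2.87%) passed at d 20, against 2 with all pigs. At an unadjusted p below 0.05 there were then 44 miRNAs, against 28.

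Some markers of blood cell types differed between the same ages. Of 3 erythroid miRNAs, 3 fell from d 11 to d 56 with edgeR, miR-486 by a log2 change of -3.34, miR-144 by -2.51 and miR-451 by -1.62. Their summed share of all counts, nearly all of it miR-486, had medians of 91.4%, 77.9% and 42.4% in control pigs at d 11, d 20 and d 56. In topsoil pigs it had medians of 88.9%, 89.2% and 38.0%, and it was between 11.8% and 95.5% in single libraries. Of 4 lymphoid miRNAs, 3 rose over the same interval, miR-181a (1.03), miR-150 (0.87) and miR-181b (0.85), while miR-342 did not pass the test (-0.20). The summed lymphoid share, led by miR-181a, had medians of 2.05%, 3.57% and 21.7% in control and 2.21%, 2.68% and 22.0% in topsoil pigs. Such shares of all counts include miR-486 and so rise when it falls. In UQ CPM the lymphoid medians were 39221, 37908 and 81592 in control and 38606, 41344 and 72160 in topsoil pigs. Of 2 leukocyte miRNAs, miR-142-5p rose by 1.55, whereas miR-142-3p (0.71) did not pass the test. Their sum, led by miR-142-5p, had medians of 0.0476%, 0.178% and 0.498% of all counts in control and 0.0513%, 0.0656% and 0.874% in topsoil pigs. In UQ CPM these medians were 1084, 1726 and 3140 in control and 1278, 1458 and 3430 in topsoil pigs. The myeloid miR-223 (0.60), at 11.12 to 91.5 UQ CPM, did not pass the test either. Of 6 platelet and endothelial miRNAs in the table, 4 were tested and 0 changed with edgeR, and their sum, led by miR-126-5p, was at most 45.1 UQ CPM and at 0 in some libraries. Over the later interval, d 20 to d 56, 3 of 3 erythroid miRNAs were lower and 3 of 4 lymphoid miRNAs higher with edgeR. No marker of the lists was at 0 in all libraries, and their part in the result was not tested. The authors isolated PBMC from whole blood by gradient centrifugation with Histopaque, and whether red blood cells remained was not tested. In a bulk sample, fewer cells of a type and less RNA per cell cannot be told apart.

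The miR-30a-5p to miR-30d ratio moved with the miR-486 share, with a Spearman correlation of 0.71 over the 39 libraries, which share pigs and differ in depth. For deviations from the group means the correlation was 0.43. In the same order, the correlations with the miR-486 share were 0.54 and 0.22 for miR-30a-5p, 0.65 and 0.39 for miR-30a-3p, and -0.56 and -0.29 for miR-30d. When the ratio of miR-486 to all other counts was added to the model, a choice made after seeing the data, 0 members and 2 of 209 miRNAs passed the FDR at d 56 against d 11, with miR-30a-5p at -0.39 and miR-30a-3p at -0.10. With the same covariate, 31 of the 209 miRNAs had an unadjusted p below 0.05. The miR-486 share was lower at d 56 than at d 11 in 13 of 13 pigs. Age and miR-486 therefore cannot be told apart in this fit, and the lost calls decide nothing about either.

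Among the members, levels in UQ CPM were most alike between the 3p arms that share the seed UUUCAGU. miR-30a-3p and miR-30e-3p had a Spearman correlation of 0.80 over the 39 libraries, although their genes are on different chromosomes. The arms of miR-30a had a correlation of 0.55, and those of miR-30e one of -0.33. miR-30d was nearest to miR-30e-5p (0.53) and miR-30b-5p (0.48), and miR-30a-5p and miR-30d had a correlation of -0.14. The points share pigs and the scaling of each library, and members that differ by 1 base may share reads. Outside the family, the miRNAs most like the mean of the 5p members were miR-186-5p (0.54), miR-454 (0.53), let-7f-5p (0.53), miR-423-3p (0.51) and miR-7137-5p (0.50). For single members, a comparison chosen after their values were seen, miR-30a-5p was most like miR-192 (0.75), the erythroid miR-451 (0.68) and miR-7139-5p (0.66), and these 3 fell from d 11 to d 56 with edgeR (log2 changes of -1.50, -1.62 and -1.23). miR-30d was most like miR-423-3p (0.69), miR-148b-3p (0.63) and miR-26a (0.62), of which miR-26a rose (0.67).

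Other families served as a comparison for the change from d 11 to d 56. In the let-7 family, 2 of 9 tested members were higher and 0 lower with edgeR, with a median log2 change of 0.53. In the miR-15/16 family, 2 of 4 were higher and 0 lower (median 0.44), and in the miR-26 family, 2 of 3 were higher and 0 lower (median 0.77). Among all miRNAs 17.2% were higher and 8.13% lower, and the median was 0.46. In the miR-30 family, 1 of 10 was higher (miR-30d) and 2 of 10 lower (median 0.13) with upper quartile scaling, whereas with TMM and with total counts without miR-486 the called members were all lower, and with total counts including miR-486 all higher. Calls among all 209 miRNAs were 34 higher and 23 lower with TMM and 16 and 26 without miR-486. With total counts including miR-486 they were 161 and 1. No test between families was made.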

How the data were processed

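Small RNA libraries of PBMC were sequenced as single-end reads. The authors checked reads with FastQC 0.11.3, trimmed them with Trim Galore 0.4.5, aligned them to Sscrofa11.1 with miRDeep2 and deposited raw counts per mature miRNA and precursor. Of each mature name the entry with the largest total was kept. Tests covered miRNAs with reads in 17 or more of 39 libraries and more than 2 reads on average, in R 4.3.3 with edgeR 4.0.16, upper quartile scaling (75%), pig, age, treatment by age and RNA quality index (RQI, from the study's sample information), with Benjamini-Hochberg adjustment over all 209. Topsoil and control were compared within each age with RQI. Pig is a true block, since the same animals were sampled at every age; deviations from group means had a mean correlation of 0.0554 within pigs and -0.0233 between pigs. The code was tested on simulated data, in which the spread between libraries was set beforehand. Of 20 changes of 2-fold and 20 of 4-fold, 17 and 20 were recovered for d 56 against d 11. For the treatment by age interaction 7 and 13 were recovered, and for topsoil against control at d 56 13 and 18. The interaction test can thus miss a difference of this size. Alternatives were TMM, total counts with and without miR-486, DESeq2 1.42.0, limma 3.58.1 (voom), other filters, every entry, no RQI, sex added, no pig block, the sample characteristics as labels, and each pig left out. The members and lists were chosen with earlier results of these data known. Every member was named; outside the family, the text names the marker lists and the 5 miRNAs most correlated with the mean of the 5p members, and other names were chosen after their values were seen. Messenger RNA was not analysed here.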

Additional observations from a re-analysis of the deposited data

Results flagged for a closer look

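Values of the 10 members, of the summed family and of the log2 ratio of miR-30a-5p to miR-30d were examined in each of the 6 groups by treatment and age, 72 sets of values in all. In 10 of them, each of a single member, a library lay far from the others of its group, by the gap to the nearest library over the range of the group. The cutoff was set for about 1 in 20 groups of normally distributed values. Member values were not on a log scale and some were 0, so that rate need not hold here. All values are in UQ CPM. Control pig 1 at d 56 was high for miR-30a-3p (72.2, group median 26.4, nearest 37.1) and for miR-30c-3p (16.3, median 1.92, nearest 5.40). Control pig 7 at d 56, the library with the fewest reads, was low for miR-30c-5p (27.6, median 91.5), and topsoil pig 1 at d 11 was low for it too (48.8, median 74.1). Control pig 6 at d 11 was high for miR-30b-5p (106, median 34.5). For miR-30c-3p, topsoil pig 4 at d 20 (9.90, median 2.36) and topsoil pig 2 at d 56 (6.33, median 2.07) were high. For miR-30b-3p, control pig 2 at d 11 (6.12, median 0.174), topsoil pig 5 at d 11 (0.312) and topsoil pig 1 at d 20 (0.371) were high, the last 2 because the other 4 libraries of their groups had 0 reads.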

How the results depend on the processing

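The number of members that passed the FDR from d 20 to d 56 (2) became 6 with total counts including miR-486, 4 without RQI, 3 without the pig block, 0 with the labels of the sample characteristics and 0 with the miR-486 covariate, and 1 to 3 when a pig was left out, 1 without topsoil pig 5. With a pig left out, the share of all 209 that passed was between 11.5% (without topsoil pig 5) and 23% (without control pig 6). The number of members had further values. It was also 3 with total counts without miR-486, which added miR-30e-3p as lower, with a mean of at least 10 reads and with every entry kept, which each added miR-30d as higher, and with limma voom, which added miR-30b-3p. Of all miRNAs tested, 22.4% passed with a mean of at least 10 reads and 16.6% with every entry kept, against 16.3% in the main fit. miR-30d passed as higher too without RQI, without topsoil pig 3 and with total counts including miR-486. From d 11 to d 56 (3) the number of members became 9 with total counts including miR-486, 4 without RQI, 4 without the pig block, 0 with the sample characteristics, 0 with the covariate, 5 with limma voom, 4 with DESeq2, 2 with every miRNA tested, and 2 to 3 when a pig was left out. The share of all miRNAs that passed was 17.7% with every miRNA tested. It was between 23% (without topsoil pig 2) and 28.7% (without control pig 3) when a pig was left out, against 25.4% in the main fit. The pig block changed no other call of a member than miR-30b-3p (log2 change 2.28 without the block). Between treatments at d 20 (0) the number of members was 0 to 1. It was 1 without topsoil pig 2, where 2.87% of all 209 passed, against 0.957% with all pigs. For d 11 to d 20, the interaction, d 11 and d 56, every setting gave 0. Reversed log2 changes from d 11 to d 56 were, with total counts including miR-486, miR-30a-3p 0.91, miR-30a-5p 1.15, miR-30c-3p 1.04, miR-30c-5p 2.003 and miR-30e-3p 1.71; with the sample characteristics, miR-30a-5p 0.0388, miR-30b-3p -0.71 and miR-30c-3p 0.21; with the miR-486 covariate, miR-30b-5p -0.79, miR-30c-3p 0.27, miR-30c-5p 0.38, miR-30e-3p 0.47 and miR-30e-5p -0.0503; without miR-486 in the scaling, miR-30e-5p -0.0281; and without the library of control pig 7 at d 56, an alternative chosen like the covariate after seeing the data, miR-30c-5p 0.0845. Leaving out a pig gave -0.11 to 0.10 for miR-30c-5p. From d 20 to d 56, miR-30a-5p was 0.60 and miR-30a-3p 0.81 with total counts including miR-486, 0.0122 and 0.13 with the sample characteristics, and miR-30a-3p was 0.0041 with the covariate. miR-30e-5p between treatments at d 20 was 0.30 with the sample characteristics. The cause was not tested for any of these. Calls among all 209 miRNAs from d 11 to d 56 split into 36 higher and 17 lower, against 161 and 1 with total counts including miR-486, 16 and 26 without miR-486 and 39 and 29 with DESeq2. From d 20 to d 56 the split was 21 and 13, against 107 and 1 with total counts including miR-486, 10 and 22 without miR-486 and 30 and 26 with DESeq2. With the sample characteristics 0 of the 209 passed in either comparison, and with the miR-486 covariate 2 and 1. The share of all 209 that passed also differed between settings: from d 11 to d 56 it was 25.4%, against 31.6% without RQI, 32.1% without the pig block and 34.4% with limma voom, and from d 20 to d 56 it was 16.3%, against 23.0% without RQI, 23.0% without the pig block, 23.4% with limma voom, 26.8% with DESeq2 (2 members) and 15.3% with total counts without miR-486 (3 members). Depth limits miR-30b-3p, miR-30c-3p and miR-30c-1-3p, which had 0 reads in some libraries. Both arms of miR-30a were lower at d 56 than at d 11 with an adjusted p of at most 0.019 whichever pig was left out.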
